A study of Homo sapiens with 5 samples.

Results

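Binding of ATF3 and p53 around 10 genes of topoisomerase function and DNA damage signalling was examined in ChIP-seq peak lists of HCT116 cells, a human colon cancer cell line. The genes were TOP1, TOP2A, TOP2B, TDP1, TDP2, PARP1, ATM, ATR, CHEK1 and BRCA1, out of 20163 protein-coding genes to which the same rule was applied. They were chosen by name, with earlier results of these data known. A peak was assigned to a gene when at least 1 bp of it lay between 20 kb upstream of the 5′ end of the gene record and the gene end in hg19. Each of the 5 conditions was measured in 1 library. The ATF3 antibody was used on ATF3-WT cells given either the solvent DMSO (ATF3-Ctrl) or 1.5 μM of camptothecin (CPT) over 4 h (ATF3-CPT) and on ATF3-KO cells given DMSO (ATF3-KO). The p53 antibody was used on p53-WT cells given the same dose of CPT (p53-CPT) and on p53-KO cells given DMSO (p53-KO), so genotype and treatment cannot be told apart between these 2 libraries. All cells were cross-linked with DSG and then with formaldehyde. The ATF3-KO line was made by homologous recombination with an AAV vector, and no library of CPT-treated ATF3-KO cells was analysed here.

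CPT traps topoisomerase I, the product of TOP1, on DNA as a cleavage complex that is turned into a strand break when a replication fork or an RNA polymerase runs into it. TDP1 removes the topoisomerase I peptide from the 3′ end of the break, TDP2 acts on the 5′ adducts of the type II enzymes TOP2A and TOP2B, and PARP1 marks breaks with poly(ADP-ribose). ATM and ATR are the kinases that signal double-strand breaks and stalled forks, CHEK1 is the effector kinase of ATR, and BRCA1 takes part in repair by homologous recombination. ATF3 is a stress-induced bZIP transcription factor that binds the ATF/CRE core TGACGTCA and the AP-1 core TGACTCA, which reads TGAGTCA on the other strand. The letters TGATGCAA, or TTGCATCA on the other strand, are known as a composite element bound by C/EBP and ATF family proteins.

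Some of the peaks on which the comparison of ATF3-CPT with ATF3-Ctrl turned are printed here with their core letters in capitals, all read from the plus strand of GRCh37, the build of hg19. The first is from a site with a higher tag count in ATF3-CPT, at chr11:108211831-108211955 in an intron of ATM. Its capitals mark an exact AP-1 core.
ATM intron: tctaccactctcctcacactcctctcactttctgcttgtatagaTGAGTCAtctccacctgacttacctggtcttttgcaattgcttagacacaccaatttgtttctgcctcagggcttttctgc
The next is from a site with a lower tag count in ATF3-CPT, at chr17:41277601-41277727 upstream of BRCA1. Its capitals mark TTGCATCA.
BRCA1 promoter: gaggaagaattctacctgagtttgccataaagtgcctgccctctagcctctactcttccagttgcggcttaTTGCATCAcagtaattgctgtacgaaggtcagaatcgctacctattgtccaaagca
The last 2 are from chr17:41322407-41322497 beside NBR1, a site that resembles the BRCA1 promoter site, and from chr20:39657334-39657458 at the 5′ end of TOP1, shown because TOP1 is the target of CPT. Their capitals mark letters that differ from the ATF/CRE core at 1 position, G2T beside NBR1 and A8G at TOP1, counted from 1 at the first letter of TGACGTCA.
NBR1 side: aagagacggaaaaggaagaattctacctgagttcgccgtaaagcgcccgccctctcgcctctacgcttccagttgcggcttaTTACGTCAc
TOP1 5′ end: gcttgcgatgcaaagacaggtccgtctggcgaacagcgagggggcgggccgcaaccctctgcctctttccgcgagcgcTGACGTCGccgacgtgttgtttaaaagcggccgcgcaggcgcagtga

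The libraries held 12947516 (ATF3-Ctrl), 15457013 (ATF3-CPT), 12820520 (ATF3-KO), 3169743 (p53-CPT) and 1984941 (p53-KO) tags, and 33966, 70702, 2231, 9211 and 7879 peaks. Peaks were compared by their normalized tag count, scaled to 10000000 tags for each library, and the tag thresholds of peak calling corresponded to 7.0, 5.8, 8.6, 22.1 and 30.2 on this scale. The lowest findPeaks score of each list equalled its threshold in tags. The lowest normalized tag counts were a little lower than the scaled thresholds, at 5.4, 4.5, 6.2, 18.9 and 25.2. Binding too weak to pass the thresholds is not in the lists. As a check of the antibodies, the ATF3 gene had 8 ATF3-Ctrl peaks and no ATF3-KO peak, while CDKN1A and MDM2, textbook p53 targets, had 3 and 2 p53-CPT peaks and no p53-KO peak.

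ATF3 peaks were found around 9 of the 10 genes in ATF3-CPT, against 81.0% of all protein-coding genes, and around 7 of the 10 genes in ATF3-Ctrl, against 65.2%. TOP2A was the gene without an ATF3-CPT peak, and TOP2B, TDP2 and PARP1 were those without an ATF3-Ctrl peak. The windows held 27 ATF3-CPT peaks and 13 ATF3-Ctrl peaks. Per 100 kb of window, this came to 2.70 and 1.30 peaks, below the 3.58 and 1.78 over the windows of all protein-coding genes. The members had a median window of 98.35 kb against 47.2 kb for all genes, so a share of genes with a peak is not matched for length. Of the 13 ATF3-Ctrl peaks, 1 overlapped a peak of ATF3-KO, at NBR1 in the window of BRCA1, against 5.38% of all ATF3-Ctrl peaks.

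**Figure D1:**
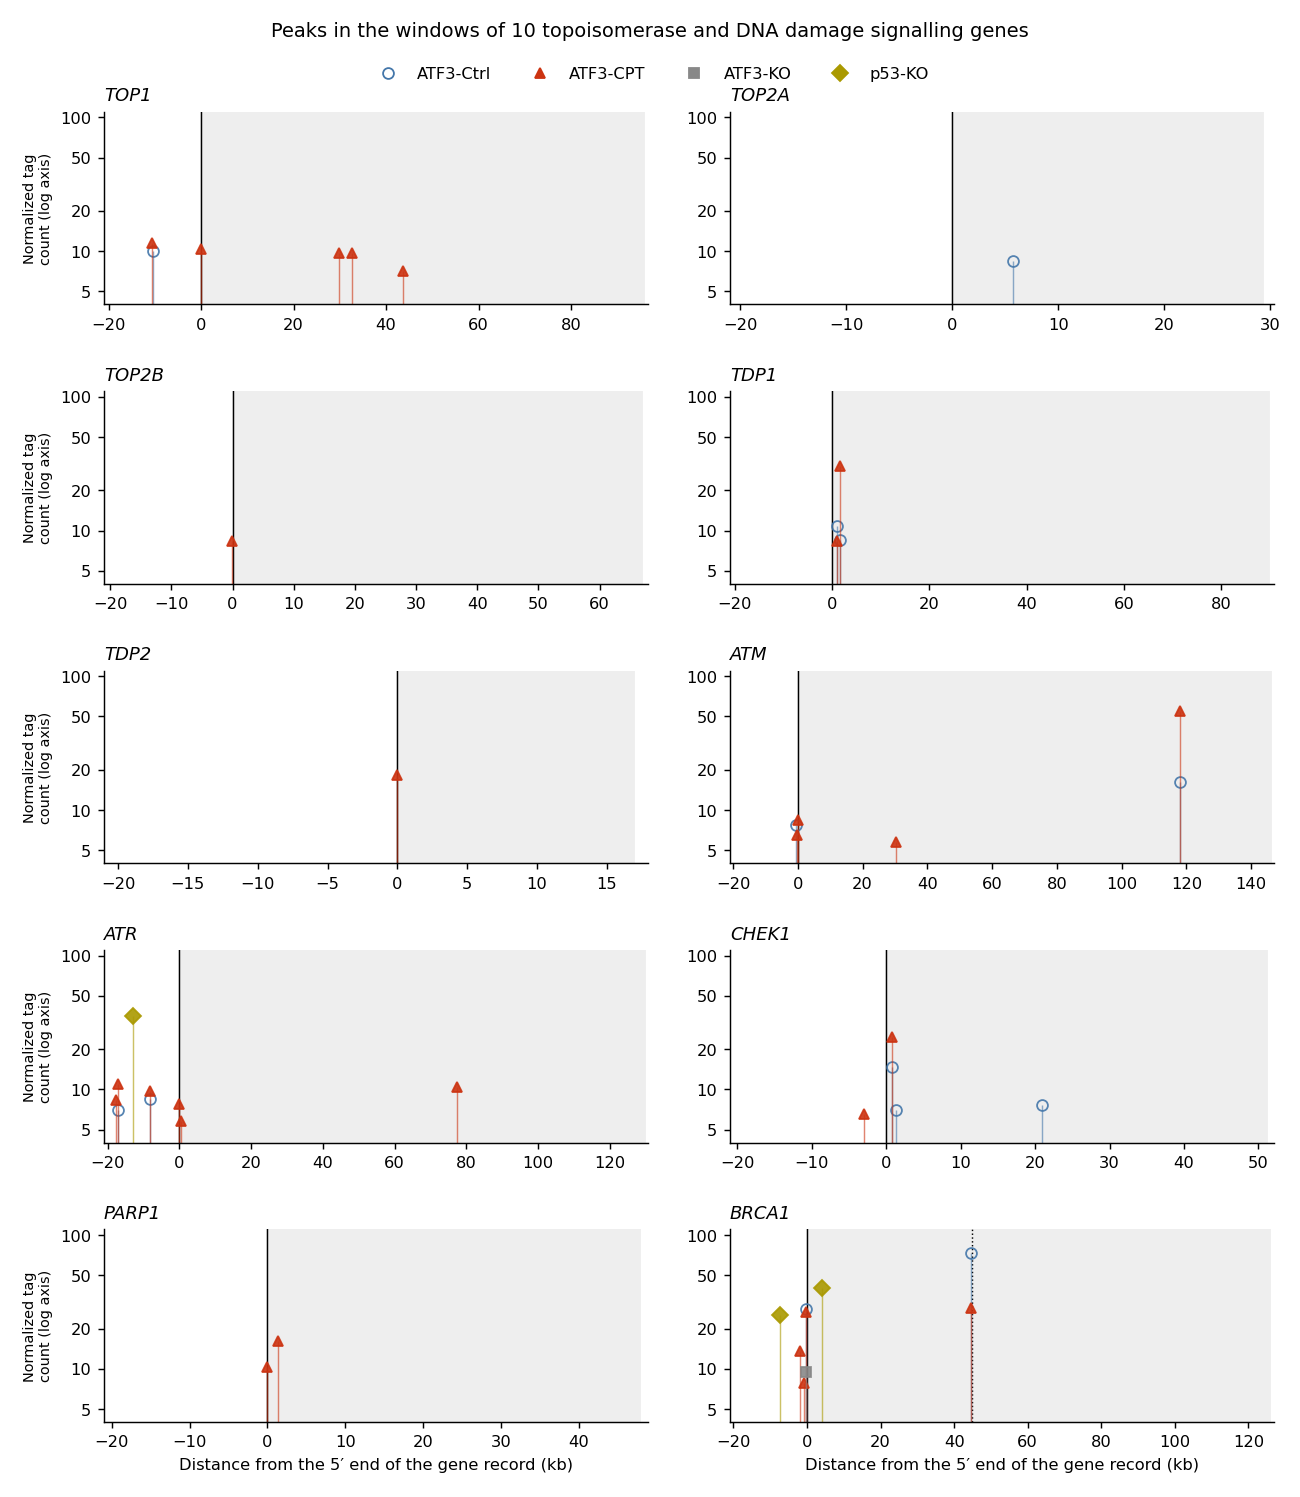
Normalized tag count (log axis, tags per 10000000 tags) of every peak against its distance from the 5′ end of the gene record (kb), 1 panel per gene, with grey for the gene body and symbols for 4 libraries, since p53-CPT had no peak in these windows. Tall ATF3 peaks stand in intron 56 of ATM, near the 5′ end of TDP1 and at the dotted line in BRCA1, which marks its MANE Select start site.

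Of the 27 ATF3-CPT peaks, 10 overlapped an ATF3-Ctrl peak by at least 1 bp and 17 did not, whereas 38.3% of all ATF3-CPT peaks overlapped one. Of the 13 ATF3-Ctrl peaks, 3 had no ATF3-CPT peak, and 79.8% of all ATF3-Ctrl peaks had one. The 17 peaks of ATF3-CPT alone lay around 8 genes and were low, between 5.8 and 18.1 with a median of 8.4, which was also the median of all peaks of this kind. The threshold of ATF3-Ctrl was 7.0, and the exact Poisson 95% interval of the tag count lay wholly above it at 3 of the 17. These 3 peaks were in the windows of TDP2, PARP1 and BRCA1, and for the other 14 a site of equal height in ATF3-Ctrl could have escaped calling. All intervals cover counting error only, and the spread between cultures could not be assessed.

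The topoisomerase genes themselves had low ATF3 peaks. At TOP1, the ATF3-Ctrl list had 1 peak, at -10488 bp (minus for upstream), with a normalized tag count of 10.0, and the overlapping ATF3-CPT peak had 11.6. The ratio of ATF3-CPT to ATF3-Ctrl was 1.16, with an exact conditional 95% interval of 0.537 to 2.575 that holds 1. ATF3-CPT had 4 further peaks at TOP1, at -66 bp with 10.4, at 29706 and 32530 bp in intron 2 with 9.7 each, and at 43635 bp in intron 3 with 7.1. The highest of these 5 ATF3-CPT peaks was thus the shared one. TOP2A, the isoform of dividing cells, had an ATF3-Ctrl peak of 8.5 in intron 7 at 5731 bp and none in ATF3-CPT. Only 1 of the 6 consecutive 20-base words of this peak occurred at 1 place in the genome, and the part of reads from copies was not tested. TOP2B, the isoform that non-dividing cells also express, had no ATF3-Ctrl peak and an ATF3-CPT peak of 8.4 at -10 bp.

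The phosphodiesterase genes TDP1 and TDP2 both carried ATF3 at their 5′ ends. TDP1 had a pair of sites in its non-coding first exons, found in both libraries. At the site 1012 bp from the end of the gene record, in exon 1 of the MANE Select transcript (the reference transcript of the annotation), the normalized tag count was 10.8 in ATF3-Ctrl and 8.4 in ATF3-CPT, a ratio of 0.778 (0.337 to 1.784). At 1669 bp, in exon 2, it was 8.5 in ATF3-Ctrl and 30.4 in ATF3-CPT, a ratio of 3.579 (1.83 to 7.652). The downstream site was thus higher in ATF3-CPT beyond counting error, while the interval of the upstream site holds 1. Only 1 of the 6 consecutive 20-base words of the downstream peak occurred at 1 place in the genome, and the commonest occurred at 125 places, and the part of reads from such copies was not tested. At TDP2, an ATF3-CPT peak of 18.1 (exact Poisson 95% interval 12.0 to 26.2) at -40 bp had no ATF3-Ctrl counterpart. The nearest start site by protein-coding transcripts belonged to ACOT13, which is transcribed away from TDP2, at -65 bp.

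PARP1 had ATF3 peaks in ATF3-CPT alone. A peak of 16.2 (10.5 to 23.9) lay in intron 1 at 1390 bp, and a peak of 10.4 (5.9 to 16.8) lay at -4 bp. The lower bound of the first was above the ATF3-Ctrl threshold of 7.0, and that of the second was not.

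Of the kinase genes, ATM carried the highest ATF3-CPT peak of all 10 genes. It lay 118122 bp from the 5′ end, in intron 56, and its normalized tag count was 16.2 in ATF3-Ctrl and 55.0 in ATF3-CPT. The ratio was 3.39 (2.084 to 5.757), and 89.3% of all sites shared by both libraries had a lower ratio. At the 5′ end of ATM, which shares its promoter with NPAT, a site at -427 bp was in both libraries with 7.7 in ATF3-Ctrl and 6.5 in ATF3-CPT, a ratio of 0.838 (0.313 to 2.242), and its nearest start site was that of NPAT. ATF3-CPT alone had a peak of 8.4 at -58 bp and a peak of 5.8 at 30307 bp in intron 12. The difference at the promoter was within counting error and that at the intronic site was not.

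ATR had more ATF3-CPT peaks than any other of the genes, 6 in all, of which the highest was 11.0. Its window of 149.7 kb was longer than the members' median of 98.35 kb, and TOP1 had 5 peaks in 115.7 kb. The count is thus not a rank of peak density. A site at -8120 bp had 8.5 in ATF3-Ctrl and 9.7 in ATF3-CPT, a ratio of 1.142 (0.49 to 2.749). A second site at -17051 bp, whose nearest start site was that of PLS1, had 7.0 and 11.0, a ratio of 1.582 (0.667 to 4.028). Both intervals hold 1. ATF3-CPT alone had peaks at -2 bp (7.8), at 593 bp in intron 1 (5.8), at 77300 bp in intron 30 (10.4) and at the PLS1 start site at -17660 bp (8.4). CHEK1 had a shared site in its non-coding exon 1 at 764 bp, with 14.7 in ATF3-Ctrl and 24.6 in ATF3-CPT. The ratio was 1.675 (0.942 to 3.076), so its interval holds 1, and 44.6% of all shared sites had a lower ratio. CHEK1 also had 2 ATF3-Ctrl peaks without an ATF3-CPT counterpart, 7.0 at 1314 bp in intron 1 and 7.7 at 20910 bp in intron 11, and an ATF3-CPT peak of 6.5 at -2947 bp.

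BRCA1 carried the highest ATF3 peak of the 10 genes in ATF3-Ctrl, and it was the 1 shared site that was lower in ATF3-CPT beyond counting error. The peak lay at -283 bp from the MANE Select start site and 3 bp from the start of NBR2, a non-coding gene that runs in the opposite direction. Its normalized tag count was 73.4 (59.4 to 89.7) in ATF3-Ctrl and 28.5 (20.7 to 38.2) in ATF3-CPT. The ratio was 0.388 (0.265 to 0.56), which is 2.578-fold lower (1.785 to 3.774), and only 0.8% of all shared sites had a lower ratio. No ATF3-KO peak lay there.

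The gene record of BRCA1 begins 44881 bp upstream of its MANE Select start site because of a long transcript, so its window of 146.0 kb takes in the promoter of NBR1. A site there had 27.8 in ATF3-Ctrl, 26.5 in ATF3-CPT and 9.4 in ATF3-KO, with a ratio of ATF3-CPT to ATF3-Ctrl of 0.954 (0.595 to 1.536). It was the only site around the 10 genes with a peak in ATF3-KO cells. This stretch of chromosome 17 holds a tandem duplication, and the sequences of the BRCA1 and NBR1 sites printed above are related. Over 116 bp laid side by side without gaps, 103 bases (88.8%) were identical and 13 differed. With positions counted from 1 at the first base of the NBR1-side peak, the differences A85G and G87A lay in the capitals, so that TTACGTCA on the NBR1 side stands against TTGCATCA on the BRCA1 side. All 6 consecutive 20-base words of each peak occurred at 1 place in the genome, and the exchange of reads between them was not tested. Beside NBR1, ATF3-CPT alone also had peaks of 7.8 and 13.6.

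**Figure D2:**
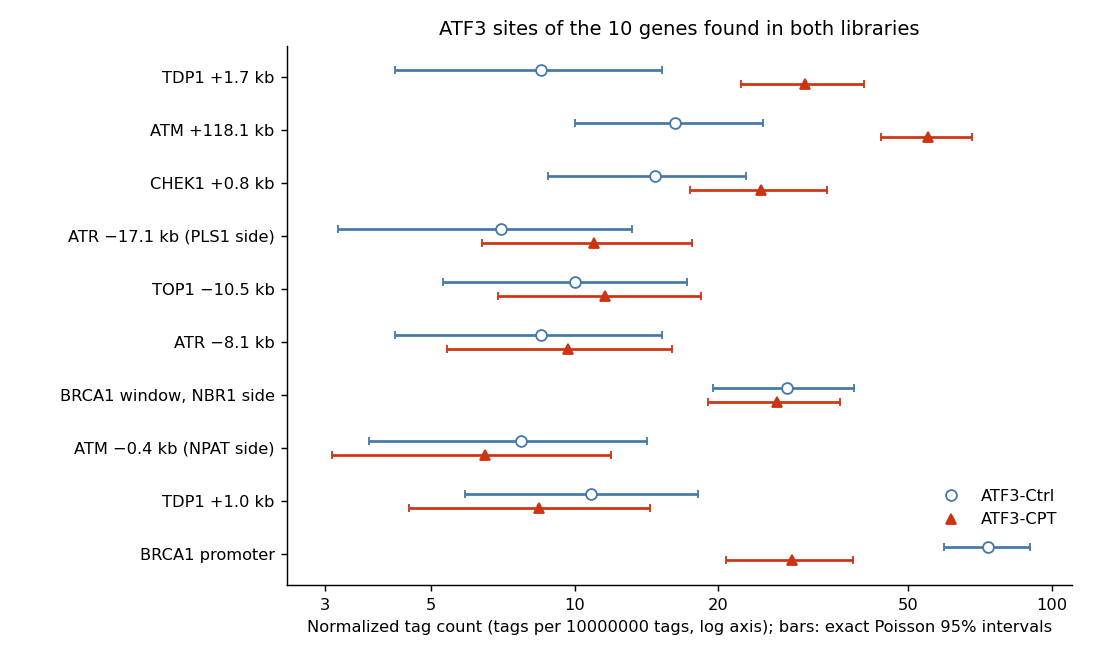
Normalized tag count (log axis, tags per 10000000 tags) in ATF3-Ctrl (circles) and ATF3-CPT (triangles) at the 10 sites found in both libraries, ordered by their ratio, with exact Poisson 95% intervals as bars. The intervals are apart at the TDP1 site at 1669 bp, at the ATM intron and at the BRCA1 promoter, where the circle is to the right, and overlap at the other 7 sites.

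Across the 10 shared sites, 4 were at least 1.5-fold higher in ATF3-CPT (60.5% of all 27104 shared sites) and 1 was at least 1.5-fold lower (6.46%). The interval of the ratio lay above 1 at 2 sites (47.9% of all shared sites), below 1 at 1 site (3.38%) and held 1 at 7 sites. The median ratio was 1.151 for the 10 sites and 1.795 for all shared sites, or 0.20 and 0.84 on the log2 scale. The share of tags in peaks was 12.76% for ATF3-CPT against 5.60% for ATF3-Ctrl, and its part in the ratios was not tested. Divided by the median of all shared sites, the median log2 ratio of the 10 sites was -0.64, and 2 sites were past 1.5-fold higher and 6 past 1.5-fold lower.

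The position of the ATF3-CPT peaks relative to start sites was then examined, with a distance of 100 bp chosen after the positions had been seen. A peak of ATF3-CPT alone was centred within 100 bp of the 5′ end of the gene record at 6 of the 10 genes, against 8.81% of all protein-coding genes. With every ATF3-CPT peak counted, it was again 6 of 10, against 23.1%. They were TOP1, TOP2B, TDP2, ATM, ATR and PARP1, and the normalized tag counts were 10.4, 8.4, 18.1, 8.4, 7.8 and 10.4. An ATF3-Ctrl peak was centred there at 0 of the 10 genes, against 16.0% of all genes. This second count rests on the start site used, as ATF3-Ctrl peaks lay within 100 bp of a protein-coding start site of TDP1 and CHEK1, 2 of 10 genes against 23.3% of all genes, when every protein-coding transcript was counted. The 6 genes were the same with the MANE Select start sites and with all start sites, against 9.31% and 13.5% of all genes. Except at TDP2, the intervals of the 6 peaks reached below the ATF3-Ctrl threshold. The 10 genes were not matched to all protein-coding genes by expression or by kind of promoter, so these shares are not matched backgrounds.

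**Figure D3:**
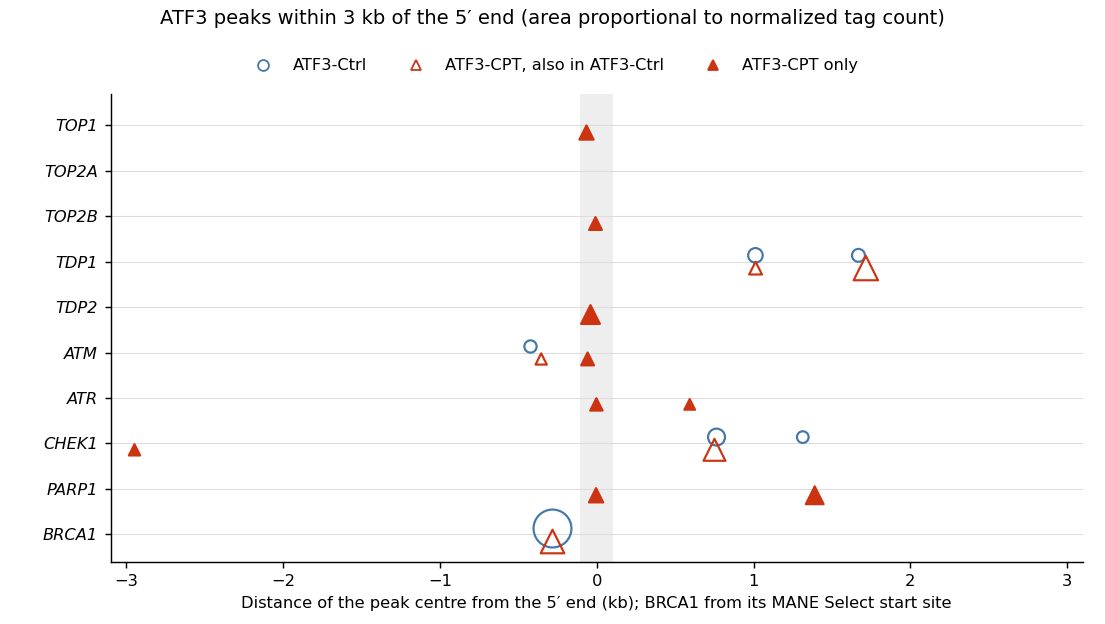
ATF3 peaks within 3 kb of the 5′ end of each gene (x axis, distance in kb), with an area in proportion to the normalized tag count, for ATF3-Ctrl (circles), ATF3-CPT peaks also found in ATF3-Ctrl (open triangles) and peaks of ATF3-CPT alone (filled triangles). Filled triangles stand in the grey band of 100 bp on either side of the 5′ end at 6 genes, and no circle does. BRCA1 is drawn from its MANE Select start site and the other genes from the 5′ end of the gene record. From its MANE Select start site, TDP1 would have a circle in the band.

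Promoters, taken as 2 kb on either side of the start site of a protein-coding transcript, held 18 of the 27 ATF3-CPT peaks, against 21.9% of all ATF3-CPT peaks. They held 8 of the 13 ATF3-Ctrl peaks (27.4% of all) and 11 of the 17 peaks of ATF3-CPT alone (18.3% of all). Gene windows hold start sites by their making, so these shares are not matched to those of the whole genome. For 18 ATF3-CPT peaks the nearest start site was that of the gene itself. By the MANE Select transcript, 16 ATF3-CPT peaks were upstream, 8 were in introns and 3 in non-coding exons, and no peak of the 5 lists was in a coding exon of these genes.

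An exact ATF/CRE core was in 0 of the 27 ATF3-CPT peaks, against 1.41% of all ATF3-CPT peaks. An exact AP-1 core was in 7 of the 27, against 40.56%. Among the 7 were the ATM intron 56 and intron 12 peaks, 2 of the TOP1 intron peaks, the ATR peak at -17022 bp and a peak beside NBR1. Of all ATF3-CPT peaks, 41.9% held an exact core of either kind, as did 32.8% of the ATF3-Ctrl peaks, against 3 of 13 for these genes. In sequences of the same width 1000 bp to the side of the ATF3-CPT peaks, 2.14% held a core. None of the 6 ATF3-CPT peaks within 100 bp of a 5′ end held an exact core. The TOP1 peak printed above held TGACGTCG, with 1 mismatch. An ATF/CRE core with at most 1 mismatch was in 4 of the 27 ATF3-CPT peaks, near the 14.18% of all ATF3-CPT peaks.

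The core TGATGCAA was searched after the sequences had been read, on both strands. It was in 3 of the 13 ATF3-Ctrl peaks, against 13.3% of all ATF3-Ctrl peaks. They were the peaks at the BRCA1 promoter (73.4), in intron 7 of TOP2A (8.5) and in intron 11 of CHEK1 (7.7). Most of the 20-base words of the TOP2A peak had copies elsewhere in the genome. In ATF3-CPT the core was in 1 of the 27 peaks, at BRCA1, against 3.51% of all. Flanking sequence of the same width held the core at 0.34%.

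The same letters were then set against all shared sites. The 9848 shared sites whose ATF3-Ctrl peak held AP-1 alone of the 3 cores had a median ratio of ATF3-CPT to ATF3-Ctrl of 2.44, and 87.6% of them were past 1.5-fold higher and 0.173% past 1.5-fold lower. The 1736 sites with TGATGCAA alone had a median ratio of 0.76, and 6.16% were past 1.5-fold higher and 36.2% past 1.5-fold lower. AP-1 was at the shared sites of the ATM intron (ratio 3.39), TDP1 at 1669 bp (3.579) and ATR at -17051 bp (1.582). These ratios were above 1, as were the median of sites with AP-1 and the median of all shared sites (1.795). The ATR ratio was below both medians, and its interval (0.667 to 4.028) holds 1. The BRCA1 site, with a ratio of 0.388, was the only shared site of the gene windows with TGATGCAA. This core was searched after the BRCA1 sequence had been read, so the BRCA1 ratio is not an independent test of it. The 593 sites with the ATF/CRE core alone had a median of 1.91, and the 14408 sites with none of these cores had a median of 1.49. Of the ATF3-Ctrl peaks with TGATGCAA, 55.0% had no ATF3-CPT peak, against 2.74% of those with AP-1 and 20.1% of all. These are values of 1 library each and of letters in a window, and do not show which protein was bound.

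**Figure D4:**
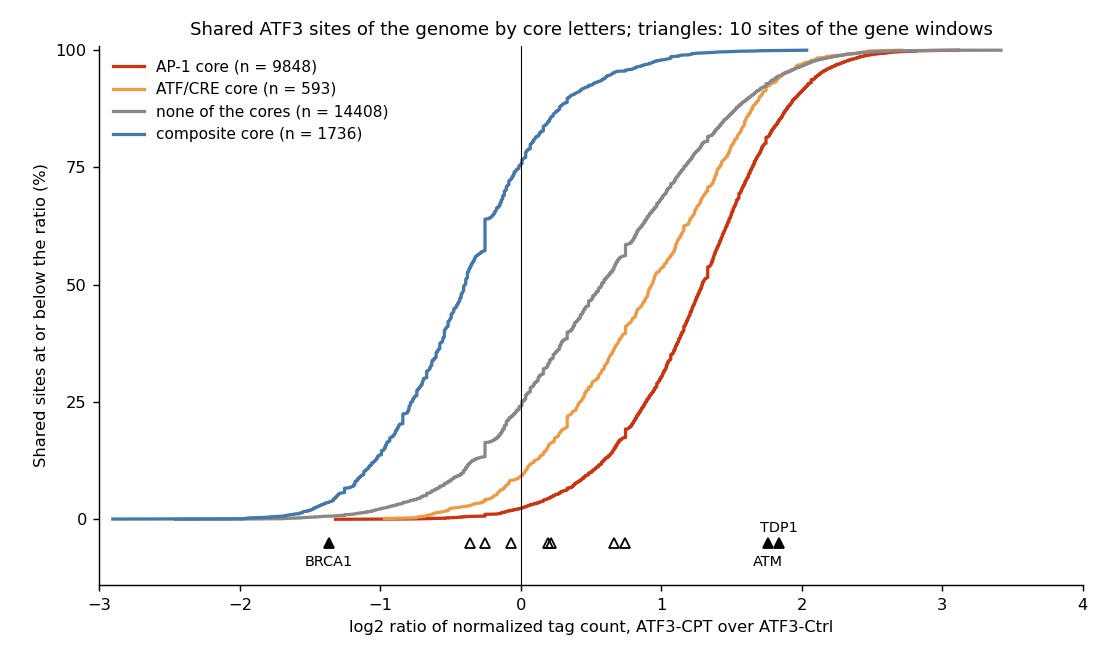
Cumulative share (%) of shared ATF3 sites of the whole genome at or below each log2 ratio of ATF3-CPT to ATF3-Ctrl, by the core in the ATF3-Ctrl peak, where the composite core is TGATGCAA. Triangles mark the 10 sites of the gene windows, filled where the interval of the ratio does not hold 1, with BRCA1 on the left and ATM and TDP1 on the right. The curve of the composite core lies to the left of the others, with a median of -0.40 against 1.29 for AP-1.

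p53 was not detected around these genes after CPT. The p53-CPT list had 0 peaks in the 10 windows, against 21.8% of all protein-coding genes with a peak. That share counts every p53-CPT peak, also those overlapped by a p53-KO peak, and is not a share of genes bound by p53. The same share for p53-KO was 17.5%. The distance from a window to the nearest p53-CPT peak was between 6.9 and 566.0 kb, with a median of 204.6 kb. With 3169743 tags, the threshold of p53-CPT corresponded to 22.1 and the lowest peak of its list had 18.9, so p53 sites weaker than that were not detectable at this depth. The p53-KO list, from cells without p53, had 3 peaks in 2 windows (17.5% of all genes), at ATR with 35.3 and at BRCA1 with 40.3 and 25.2. They rested on 5 to 8 tags each, and none overlapped a peak of the other lists.

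The wider pathways were described with 51 genes in 5 lists. ATF3-CPT peaks were found around 48 of the 51 genes (81.0% of all genes) and ATF3-Ctrl peaks around 43 (65.2%). ATF3-KO peaks were around 11 genes (11.4%), p53-CPT peaks around 8 (21.8%) and p53-KO peaks around 7 (17.5%). Of 74 shared ATF3 sites, 37 were past 1.5-fold higher in ATF3-CPT (60.5% of all shared sites) and 5 past 1.5-fold lower (6.46%). A peak of ATF3-CPT alone within 100 bp of the 5′ end was found at 7 of the 51 genes, against 6 of the 10 genes above and 8.81% of all genes.

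Among the 20 checkpoint kinases and mediators, 18 had ATF3-CPT peaks and 17 had ATF3-Ctrl peaks, and 17 of 34 shared sites were past 1.5-fold higher (60.5% of all shared sites) and 2 past 1.5-fold lower (6.46%). WEE1, the kinase that holds CDK1 inactive, had the highest peak, with 72.6 in ATF3-Ctrl and 165.6 in ATF3-CPT, at -7499 bp in ATF3-Ctrl. CHEK2, the effector kinase of ATM, had 6.2 and 37.5 in its 5′ region at 652 bp. CLSPN and MDC1 had no ATF3 peak. Among the 9 genes of the BRCA complex list, all had an ATF3-CPT peak (81.0% of all genes) and 5 of 8 shared sites were past 1.5-fold higher, near the 60.5% of all shared sites. The helicase gene BRIP1 had 11.6 in ATF3-Ctrl and 48.5 in ATF3-CPT at 29838 bp.

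In the list of 4 PARP genes and partners, all 4 shared sites were past 1.5-fold higher, against 60.5% of all shared sites, among them PARP2 with 30.1 in ATF3-Ctrl and 88.0 in ATF3-CPT at -20 bp, where a peak of 11.7 was also called in ATF3-KO. Among the 7 genes of the MRN complex and end resection, 2 of 9 shared sites were past 1.5-fold higher and 2 past 1.5-fold lower, against the same 60.5% and 6.46%. Among the 11 topoisomerase partners and end-processing genes, 9 of 19 were past 1.5-fold higher (60.5% of all) and 1 past 1.5-fold lower (6.46%). The lower site was at POLB, the gene of the repair polymerase β, with 17.8 in ATF3-Ctrl and 9.1 in ATF3-CPT at 5 bp. These counts are descriptions of 2 libraries and carry no test. No intervals are given for the sites of the 5 lists, so counting error at POLB and the other named sites is not shown.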

How the data were processed

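ChIP-seq for ATF3 (3 libraries) and p53 (2 libraries) was analysed in HCT116 cells, with 1 library per condition. Per the submitters' processing notes and the file headers, the authors aligned reads to hg19 with BWA 0.6.1 and called peaks per library with findPeaks of HOMER 4.1, with 0.001 as the false discovery rate, and 4 as the fold and 1e-04 as the p over the local 10 kb. The normalized tag count that the authors deposited is a signal scaled to 10000000 tags. The deposited findPeaks score was above the number of tags behind the normalized tag count at some peaks and below it at others. The fold ratio over the local region, its p-value and the fraction of a peak's tags close to its centre, which the authors also deposited, were not used.

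Whole tags were recovered from the normalized tag counts (100% within 0.15 of a whole number). Shared sites were ATF3-Ctrl peaks with the highest-scoring ATF3-CPT peak overlapping by 1 bp. Intervals are exact Poisson for tag counts and exact conditional (Clopper-Pearson) for ratios, at 95%, and cover counting error only, since reads were not marked as separate molecules. With 1 library per condition no p-value was computed, and a ratio of 1.5-fold was the call. Genes were taken from GENCODE release 44 mapped to GRCh37, and the sequence from GRCh37. All members are named with every site, and other genes where they own the nearest start site or belong to 51 pathway genes, with the highest-scoring peak of each list. The members and gene lists were chosen with earlier results of these data known. No p53 motif was searched, since no p53-CPT peak lay in the windows. Scripts (Python 3.11.15, numpy 2.4.6, pandas 2.3.3, scipy 1.17.1, matplotlib 3.10.9) were tested on simulated data. The sequences of some peaks are not reported here.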

Additional observations from a re-analysis of the deposited data

How the results depend on the processing

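With 1 library per condition, intervals cover counting error and not the spread between cultures, and the tag thresholds set what could be called. Of 95 values recomputed for 18 results, 59 changed little (counts within 1.5 times), 35 changed by more, and 1 changed sign. Among the 59 were the p53-CPT counts of 0, most of which could not have changed. Requiring a score of at least 15 left 4 ATF3-Ctrl peaks in 3 genes, 16 ATF3-CPT peaks, 4 shared peaks, 3 genes with an ATF3-CPT peak near the 5′ end, and 0 peaks of ATF3-KO and p53-KO in 0 genes. At 20, ATF3-Ctrl had 3 peaks in 2 genes, ATF3-CPT 8 peaks, and ATF3-KO and p53-KO 0 peaks in 0 genes. With lists of equal length, 5 peaks were shared. With 20 kb past the gene end, ATF3-KO had 2 peaks in 2 genes. Counting only peaks nearest to the gene's own start site, or starting the window at the MANE Select start site (added after seeing the data), left 0 ATF3-KO peaks in 0 genes and 1 p53-KO peak in 1 gene. With 5 kb upstream, p53-KO also had 1 peak in 1 gene.

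With ratios divided by the median of all shared sites, 2 sites were past 1.5-fold higher and 6 lower, and the median log2 ratio changed from 0.20 to -0.64. By construction, this scaling sets the median of all sites to a ratio of 1. At a fold of 2, 2 sites were higher. With 1 mismatch in the ATF/CRE core, 11 ATF3-CPT peaks held that core or AP-1, and the same share over all ATF3-CPT peaks was not computed. ATF3-Ctrl peaks within 100 bp of a start site were at 1 gene with MANE Select starts and at 2 with all starts (both added after seeing the data). The p53-CPT count was 0 under each alternative tried, but only the window with 20 kb past the gene end could have raised it. The other alternatives shorten the windows or the list, so a count of 0 could not change under them. No paired analysis was possible because each condition had 1 library.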

Other observations

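The p53-CPT peak closest to any of the 10 windows lay 6.9 kb from that of TOP2A, with a normalized tag count of 113.6, and its nearest start site was that of IGFBP4. A p53-KO peak overlapped it. Of the 10 nearest p53-CPT peaks, 4 overlapped a p53-KO peak. The nearest p53-CPT peak to the window of CHEK1 lay at a distance of 35.5 kb with 94.6, nearest to EI24, a gene known as induced by p53, and no p53-KO peak overlapped it.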
